A study of Mus musculus with 2 samples.

Results

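The 8 genes described here carry out or mark salt transport in the thick ascending limb of the loop of Henle and the distal nephron: Slc12a1, Slc12a3, Kcnj1, Kcnj10, Kcnj16, Bsnd, Umod and Ptger3. They were chosen for that role and matched by symbol, 8 of 32285 genes listed in the count matrices, each to 1 row. Their messenger RNA was counted in single cells of newborn mouse kidney, in 2 libraries made at postnatal day 0. Their common genotype is Rbpj c/+ ; Foxd1cre/+ by the labels: 1 allele of Rbpj is conditional, and Foxd1 carries Cre recombinase. Foxd1 is a gene of kidney stromal progenitors, whereas nephron epithelium descends from a separate progenitor pool. With 1 genotype label for both libraries, no effect of genotype could be tested. The labels do not say whether a library holds 1 animal or a pool. So every p-value rests only on how far differences between cell classes varied between these 2 libraries. Pairs of values are given for replicate 1 and then replicate 2, which are names only.

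Salt leaves the filtrate of the thick limb through the apical Na-K-2Cl cotransporter NKCC2, the product of Slc12a1, and that of the distal convoluted tubule through the apical Na-Cl cotransporter NCC, the product of Slc12a3. The potassium that NKCC2 takes up returns to the lumen through the apical channel ROMK (Kcnj1). On the basolateral side, potassium channels built from Kir4.1 (Kcnj10) and Kir5.1 (Kcnj16) set the membrane voltage, and Bsnd encodes barttin, a subunit that basolateral chloride channels need. Umod encodes uromodulin, the protein that thick limb cells secrete into urine, and Ptger3 encodes the prostaglandin E2 receptor EP3. Loss of NKCC2, ROMK or barttin causes Bartter syndrome, and loss of NCC causes Gitelman syndrome.

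A barcode was kept as a cell if it had 3000 or more UMIs (unique molecular identifiers, 1 per captured RNA molecule), 500 or more genes and no more than 20% of its UMIs from mitochondrial genes. This left 5529 and 4206 cells with medians of 15016 and 20008 UMIs. The libraries shared 6 cell barcodes. Cells were placed in 16 classes by 88 marker genes that include none of the 8 genes, so the levels below did not decide the class, and 37 and 10 cells fell in no class. The loop gate held 193 and 257 cells, the distal precursor gate 328 and 241, the distal convoluted gate 49 and 83, the connecting gate 135 and 198, the collecting duct gate 179 and 150 and the intercalated gate 82 and 62. The 8 loop markers (Cldn16, Cldn19, Tmem207, Ppp1r1a, Casr, Wfdc15b, Sostdc1, Foxq1) summed to 3267 and 3030.0 CPM in the loop gate and 1835 and 1666 CPM in the distal convoluted gate, where CPM stands for UMIs per 1000000 UMIs of a class. The precursor gate (Tfap2b, Irx1, Irx2, Mecom, Dkk1, Papss2) was mixed. Of its cells, 79 and 28 had no UMI of Tfap2b or Irx1, and in these the epithelial gene Epcam stood at 49.4 and 16.3 CPM and the stromal gene Col3a1 at 490.4 and 331 CPM. Cells whose next-best class scored over 80% of the best made up 28.5 and 29.6% of the loop gate and 32.01 and 36.9% of the precursor gate. Free RNA carried the 8 genes too: in barcodes under 100 UMIs, Slc12a1 stood at 301 and 377 CPM and Bsnd at 11.6 and 22.6 CPM.

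The apical cotransporters were highest in separate segments. Slc12a1 stood at 7356 and 6909 CPM in the loop gate, at 2159.7 and 1827 CPM in the precursor gate and at 90.5 and 15.99 CPM in the distal convoluted gate. The loop gate held 63.6 and 77.4% of all Slc12a1 UMIs in cells and the precursor gate 33.2 and 19.2%. Both loop values lay above both precursor values, and these above every other class. The precursor value is that of a mixed gate: 37 and 43 of its cells, with at least 2 UMIs of Nos1 and Ptgs2 together, held 12559 and 6439 Slc12a1 UMIs. Its other cells with Tfap2b or Irx1 held 11642 and 5688 where Lhx1 was found and 3224 and 4664 where it was not. In the intercalated gate the libraries differed, 14.4 and 218 CPM, and 1 cell of replicate 2 carried 93.7% of those UMIs. The immune gate, at 123 and 379 CPM, likewise had 1 cell in each library with 85.1 and 93.7% of the UMIs.

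Slc12a3 was highest in the distal convoluted gate, at 2785 and 2953 CPM, followed by the connecting gate at 332 and 916 CPM. No other class passed 100 CPM in either library. The loop gate had 41.7 and 13.5 CPM and the collecting duct gate 5.15 and 7.65 CPM. The distal convoluted and connecting ranges did not overlap, and the ranges of all lower classes overlapped with their neighbours down to the ureteric tip. The distal convoluted and connecting gates held 62.8 and 52.7% and 25.9 and 41.9% of its UMIs.

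Slc12a1 lies at chr2:125152505-125230002, plus strand and Slc12a3 at chr8:94329201-94366214, plus strand (GRCm38, GENCODE M21), and Umod at chr7:119462711-119479282, minus strand. The annotation places Gm14002 on the opposite strand of Slc12a1 and Gm44588 on that of Umod, and whether counting used strand is not given in the sources used here. The bases just before the annotated starts are shown for the cotransporter genes of the loop and distal convoluted gates and for the gene most like Slc12a1. They are RefSeq sequence (GRCm38.p6), read along the gene's strand, and capitals mark matches to GTTAAT, a core of the HNF1 recognition sequence searched on both strands, or to the TATA box TATAAA, searched on the gene's strand.
Slc12a1, chr2:125152350-125152504, plus strand: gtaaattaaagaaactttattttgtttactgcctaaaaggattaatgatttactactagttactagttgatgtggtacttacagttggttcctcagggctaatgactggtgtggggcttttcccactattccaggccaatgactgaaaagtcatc
Umod, chr7:119479283-119479512, minus strand: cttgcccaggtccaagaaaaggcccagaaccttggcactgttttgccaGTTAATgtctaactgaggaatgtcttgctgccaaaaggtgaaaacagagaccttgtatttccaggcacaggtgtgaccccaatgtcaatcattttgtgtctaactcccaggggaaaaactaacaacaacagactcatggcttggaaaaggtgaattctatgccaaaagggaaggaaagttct
Slc12a3, chr8:94328958-94329200, plus strand: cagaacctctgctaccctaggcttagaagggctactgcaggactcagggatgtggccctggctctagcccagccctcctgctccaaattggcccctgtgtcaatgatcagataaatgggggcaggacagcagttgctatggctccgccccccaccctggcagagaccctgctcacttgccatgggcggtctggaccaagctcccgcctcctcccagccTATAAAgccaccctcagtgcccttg
The Slc12a1 bases held neither run of letters. Counted from the RefSeq start, which in both genes lies downstream of the GENCODE start where the printed bases end, Umod had GTTAAT at -202 and Slc12a3 had TATAAA at -32. In windows of 300 bases around the start, GTTAAT occurred in 7.10% and TATAAA in 8.32% of the 32817 promoters listed. RefSeq windows were found for 7 of the 8 genes, and the only other matches were in 2 of the 4 windows of Kcnj16. A match is a run of letters, and its use in these cells was not tested.

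**Figure D1:**
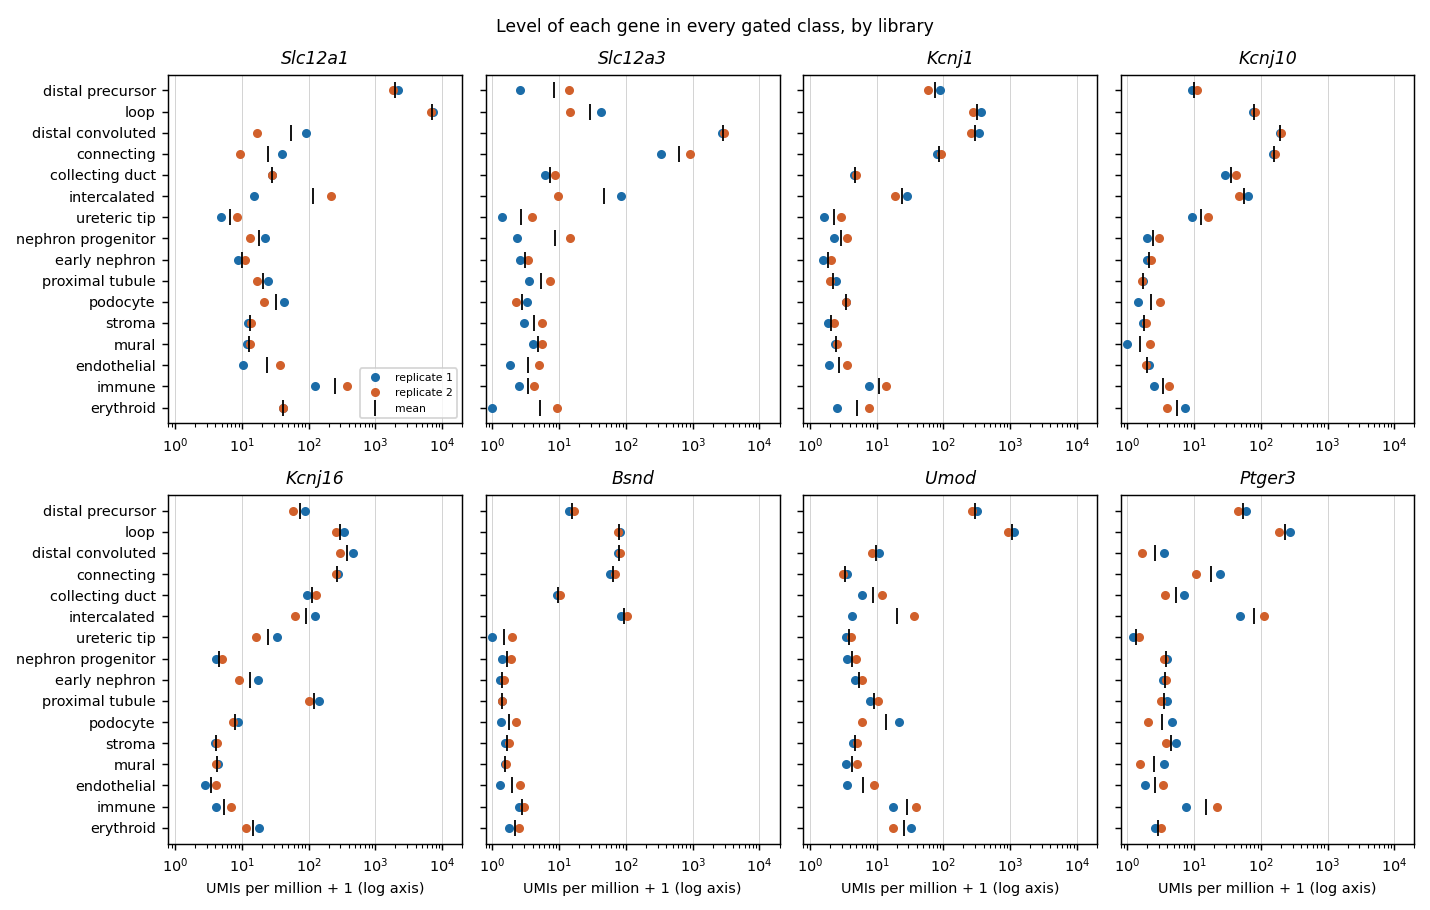
Level of each gene (horizontal, CPM plus 1, log axis) in the 16 gated classes (vertical); points are the 2 libraries and bars their mean. Slc12a1 and Umod were highest in the loop gate, Slc12a3 in the distal convoluted gate, and Kcnj10, Kcnj16 and Bsnd across several distal classes.

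Kcnj1, the apical potassium channel that both salt-reabsorbing segments use, did not follow either cotransporter alone. It stood at 361 and 281 CPM in the loop gate and 343 and 259 CPM in the distal convoluted gate, ranges that overlapped. Next came the connecting gate at 78.3 and 92.5 CPM and the precursor gate at 87.6 and 58.96 CPM, which overlapped with each other. The collecting duct gate, where ROMK is known to secrete potassium in the adult, had 3.53 and 3.89 CPM, from 26 and 29 UMIs in all of its cells. The immune gate, which should lack the gene, had 6.64 and 13 CPM, above both of those values. Stroma, at 0.893 and 1.34 CPM, lay below both, and the erythroid gate, at 1.57 and 6.79 CPM, overlapped with them. The immune level rested on few cells. Without cells whose next-best class scored close to the best, it was 0.540 and 2.07 CPM, from 1 and 3 UMIs. The collecting duct gate then had 3.26 and 1.25 CPM, which overlapped with the immune values.

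The basolateral channel subunits were spread over several distal classes. Kcnj10 stood at 193 and 197 CPM in the distal convoluted gate, 149.5 and 162 CPM in the connecting gate, 74.5 and 80.5 CPM in the loop gate, 63.8 and 46.4 CPM in the intercalated gate and 28.2 and 42.3 CPM in the collecting duct gate. No neighbouring ranges in that order overlapped. The precursor gate had 8.26 and 10.1 CPM. Kcnj16 stood at 470.3 and 292 CPM in the distal convoluted gate, 343 and 255 CPM in the loop gate and 279 and 256 CPM in the connecting gate, which overlapped. A second tier of overlapping classes followed, with 141 and 99.1 CPM in the proximal tubule gate, 93.98 and 127 CPM in the collecting duct gate, 122 and 61 CPM in the intercalated gate and 87.98 and 58.5 CPM in the precursor gate.

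The channel subunits can assemble with each other, and the ratio of their UMIs was taken in each class. The connecting gate had 1.86 and 1.57 Kcnj16 UMIs per Kcnj10 UMI and the distal convoluted gate 2.43 and 1.48. The loop gate had 4.60 and 3.17, with exact 95% binomial intervals of 4.19 to 5.06 in replicate 1 and 2.92 to 3.44 in replicate 2. In the precursor gate the ratio was 10.6 and 5.78, the highest of the 8 classes with at least 20 Kcnj10 UMIs in each library, and in the intercalated gate 1.92 and 1.32. The order precursor, loop, distal convoluted held in each library, but the libraries differed by more than their intervals, 8.71 to 13.1 against 4.63 to 7.29 in the precursor gate. These intervals cover counting error only, and the ratio compares UMIs of different transcripts, so only its change between classes is interpretable. The precursor ratio is that of a mixed gate, and the sets divided by Slc12a1 level below were unlike in it. Under 100 CPM of Slc12a1, Kcnj16 had 123 and 102 UMIs and Kcnj10 21 and 33. Between 100 and 1000 CPM they had 79 and 43 and 28 and 28, and over 1000 CPM 541 and 273 and 35 and 20. The order above is thus one of whole gates and did not hold for every precursor set. The proximal tubule gate paired its 141 and 99.1 CPM of Kcnj16 with 0.743 and 0.665 CPM of Kcnj10, a level also found in stroma (0.731 and 0.892 CPM).

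**Figure D2:**
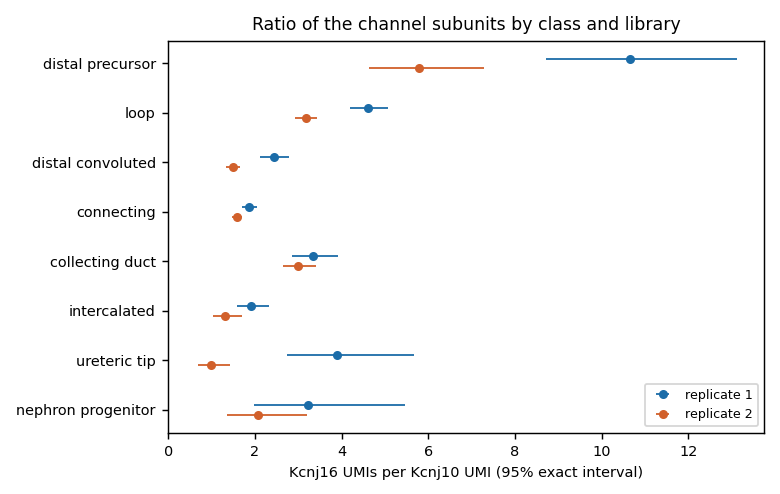
Kcnj16 UMIs per Kcnj10 UMI (horizontal) in 8 classes (vertical) for each library, with exact 95% binomial intervals. The ratio was 10.6 and 5.78 in the precursor gate and 1.86 and 1.57 in the connecting gate.

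Bsnd, the chloride channel subunit, was found in 4 classes at levels within a factor of 2. The intercalated gate had 83.3 and 102 CPM, the loop gate 81.2 and 75.9 CPM, the distal convoluted gate 74.3 and 81.7 CPM and the connecting gate 56.8 and 68.7 CPM. Loop and distal convoluted ranges overlapped, and the precursor (13.2 and 15.4 CPM) and collecting duct gates (8.14 and 9.39 CPM) lay below all 4. Umod was highest in the loop gate at 1161 and 939.5 CPM, followed by the precursor gate at 315 and 270.1 CPM, with no other class above 38.3 CPM in either library.

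Ptger3 stood at 274 and 187 CPM in the loop gate. The intercalated gate followed at 47.2 and 110.3 CPM, overlapping with the precursor gate at 60.2 and 44.7 CPM. Unlike Slc12a1, these intercalated UMIs were spread over cells: the highest cell held 9.92 and 9.09% of them. The distal convoluted gate had 4 and 2 Ptger3 UMIs in all, or 2.61 and 0.695 CPM.

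Per cell, thinned to 3000 UMIs each, Slc12a1 had a UMI in 96.4 and 96.1% of loop cells, with exact 95% intervals of 92.7 to 98.5% and 92.96 to 98.1%. The share in stromal cells, which should lack the gene, was 3.21 and 4.51%, at unthinned median depths of 11074 and 16063 UMIs against 24929 and 28610.0 in the loop gate. Connecting (3.70 and 2.02%), collecting duct (3.35 and 3.33%) and intercalated cells (3.66 and 1.61%) were at that background. Slc12a3 had a UMI in 79.6 and 85.5% of distal convoluted and 28.1 and 37.4% of connecting cells, against 0.681 and 1.18% of stromal cells. The precursor gate, at 1.22 and 2.07%, and the collecting duct gate, at 0.559 and 2%, were near that level. Kcnj1 was found in 64.2 and 58.8% of loop and 1.12 and 1.33% of collecting duct cells, against 0.486 and 0.429% of stromal cells. Kcnj16 was found in 28.3 and 23% of proximal tubule cells, against 1.17 and 1.39% of stromal cells. Bsnd was found in 23.2 and 35.5% of intercalated cells, 16.6 and 19.8% of loop cells and 0.273 and 0.485% of endothelial cells. Umod was found in 65.3 and 61.1% of loop cells and 25.6 and 26.6% of precursor cells, against 0.973 and 2.15% of stromal cells. Ptger3 was found in 14.6 and 14.5% of intercalated cells and 0.973 and 0.966% of stromal cells.

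When loop cells were set against precursor cells, all 8 genes were higher, where 16.5% of the 17746 genes tested were called higher, 17.4% lower and 34.0% in either direction. The call is a Benjamini-Hochberg adjusted p under 0.05 in edgeR's quasi-likelihood test on counts summed per library and class. The median log2 fold change of the 8 was 2.37, against -0.06 over all genes tested. Kcnj10 had the largest difference, 8.26 and 10.1 CPM to 74.5 and 80.5 CPM (log2 fold change 3.32 ± 0.24, adjusted p = 4.40e-09). Bsnd (2.71 ± 0.23, adjusted p = 2.58e-08), Ptger3 (2.37 ± 0.38, adjusted p = 6.13e-05) and Kcnj1 (2.36 ± 0.27, adjusted p = 1.10e-06) followed, then Kcnj16 (2.27 ± 0.27, adjusted p = 1.45e-06) and Umod (2.09 ± 0.43, adjusted p = 7.70e-04). In all 6 of these genes both loop values lay above both precursor values. Slc12a1 had a fold change of 2.08 ± 0.74 and the weakest support of the group, adjusted p = 0.0351. Its call was lost with DESeq2's Wald test (adjusted p = 0.0679), without the library block (0.0606) and after subtraction of free RNA (0.0835), while the fold change stayed between 1.99 and 2.29 over all tested alternatives. Slc12a3 (2.51 ± 0.88, adjusted p = 0.0316) rested on 41.7 and 13.5 CPM in the loop gate against 1.57 and 13.1 CPM in the precursor gate. The gates were thus nearly equal in replicate 2, and the difference lay in replicate 1. In the loop gate 1 cell of each library held 36.9 and 37.1% of the Slc12a3 UMIs. Without near-cut cells the loop level was 8.26 and 5.12 CPM and the call was lost (log2 fold change 1.55, adjusted p = 0.190), as it was without the library block (adjusted p = 0.105) and after subtraction of free RNA (0.0832). With precursor cells restricted to those with a Tfap2b or Irx1 UMI, all 8 were still called. That restriction kept the cells with at least 2 UMIs of Nos1 and Ptgs2, whose part in these fold changes was not tested.

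Other genes of salt transport and its control were compared in the same fit. Fxyd2, a regulator of the sodium pump, was higher in the loop gate (2.78 ± 0.42). Of 6 cotransporter relatives and sodium exchangers, 3 were higher, led by the apical exchanger Slc9a3 (2.51 ± 0.22). Of 9 kinase and ubiquitin genes that control the cotransporters, 4 were higher, led by Wnk4 (2.15 ± 0.18), and 5 did not pass. Hormone receptors and cyclases had 3 of 8 higher, with Avpr2, the vasopressin receptor, at 3.37 ± 0.46, and 1 lower, Adcy3. Of 8 transcription factors, 3 were higher, with Esrrb at 3.23 ± 0.30. Both macula densa genes were lower in the loop gate, Nos1 (-2.74 ± 0.39) and Ptgs2 (-1.71 ± 0.53). Of 5 other potassium channels, Kcnq1 was higher (1.71 ± 0.33) and Kcnma1 lower (-2.65 ± 0.40). The paracellular and magnesium list had 3 of 6 higher, led by the sodium-permeable claudin Cldn10 (1.69 ± 0.34).

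Between the distal convoluted and loop gates, 5 of the 8 genes differed, 2 higher and 3 lower, against a background of 12.2% called, 4.49% higher and 7.69% lower. Of all genes called here, 36.9% were higher with TMM scaling and 51.6% with DESeq2 size factors, while the 5 calls and their directions were kept. Slc12a3 was higher in the distal convoluted gate (6.44 ± 0.87, adjusted p = 2.61e-05). The loop genes were lower there: Slc12a1 (-7.36 ± 0.98, adjusted p = 2.21e-05), Umod (-7.13 ± 0.64, adjusted p = 1.08e-07) and Ptger3 (-7.46 ± 0.71, adjusted p = 2.47e-07). Kcnj10 was higher (1.19 ± 0.21, adjusted p = 5.60e-04), and all 4 library values were separate. Kcnj1 (-0.25 ± 0.26), Kcnj16 (0.18 ± 0.26) and Bsnd (-0.17 ± 0.22) did not pass, with adjusted p of 0.631, 0.734 and 0.709, and their ranges overlapped. The standard errors of those 3 lay between 0.22 and 0.26 on the log2 scale and differences of that order were not detectable at this precision. The 5 distal convoluted markers summed to 2764 and 2266 CPM in their own gate and 485 and 304 CPM in the loop gate. With near-cut cells left out, Slc12a1 in the distal convoluted gate stood at 59.3 and 12.1 CPM.

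Genes that regulate the cotransporters were compared next. Of 9 kinase and ubiquitin genes, 5 were higher in the distal convoluted gate and 4 did not pass. They were led by Klhl3 (3.08 ± 0.24), an adaptor that marks WNK kinases for breakdown, Sgk1 (2.20 ± 0.43), Wnk1 (1.69 ± 0.17) and the mineralocorticoid receptor Nr3c2 (1.27 ± 0.27). Slc9a3 (-5.41 ± 0.33), Slc9a2 (-3.45 ± 0.43) and Cldn10 (-8.27 ± 0.59) were lower. Cnnm2, a magnesium transport gene, was higher (2.04 ± 0.18), as was Kcnq1 (2.83 ± 0.29), and the receptors Avpr2 (-1.93 ± 0.59) and Pth1r (-0.97 ± 0.24) were lower. Of 8 transcription factors only Tfap2a passed (2.47 ± 0.36).

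Against the collecting duct gate, the loop gate had higher levels of all 8 genes (8 of 8 called lower in the collecting duct, background 18.7% lower, 16.6% higher and 35.3% in either direction). The median of the 8 was -4.67 on the log2 scale, against -0.01 for all genes tested. Differences were largest for Slc12a1 (-8.25 ± 0.997, adjusted p = 9.47e-07), Umod (-7.32 ± 0.58, adjusted p = 2.52e-09), Kcnj1 (-6.66 ± 0.37, adjusted p = 1.81e-11) and Ptger3 (-5.93 ± 0.50, adjusted p = 5.51e-09). Bsnd was intermediate (-3.41 ± 0.25, adjusted p = 8.09e-10), and the basolateral channels had the smallest, Kcnj10 -1.39 ± 0.22, adjusted p = 2.74e-05 and Kcnj16 -1.63 ± 0.26, adjusted p = 4.32e-05. Slc12a3 (-2.50 ± 0.92, adjusted p = 0.0387) lost its call without near-cut cells (-0.87, adjusted p = 0.482), with DESeq2's Wald test, without the library block and after subtraction of free RNA. Fxyd2 was lower too (-5.04 ± 0.47). The kinase list divided, with 3 of 9 higher, led by Sgk1 (4.30 ± 0.35) and Nedd4l (1.48 ± 0.18), and 6 lower, led by Wnk4 (-2.01 ± 0.18). Unlike Ptger3, the prostaglandin receptor gene Ptger1 was higher in the collecting duct gate (5.66 ± 0.30), as was Avpr2 (2.64 ± 0.31). Of 8 transcription factors, 4 were lower, led by Esrrb (-6.20 ± 0.40), and 2 higher, led by Tfap2a (3.39 ± 0.31). The paracellular list had 4 of 6 lower, led by Cldn10 (-7.14 ± 0.47). The secretory cotransporter Slc12a2 was higher (0.90 ± 0.19), and 4 of its 5 list partners were lower, led by Slc9a3 (-7.37 ± 0.33).

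**Figure D3:**
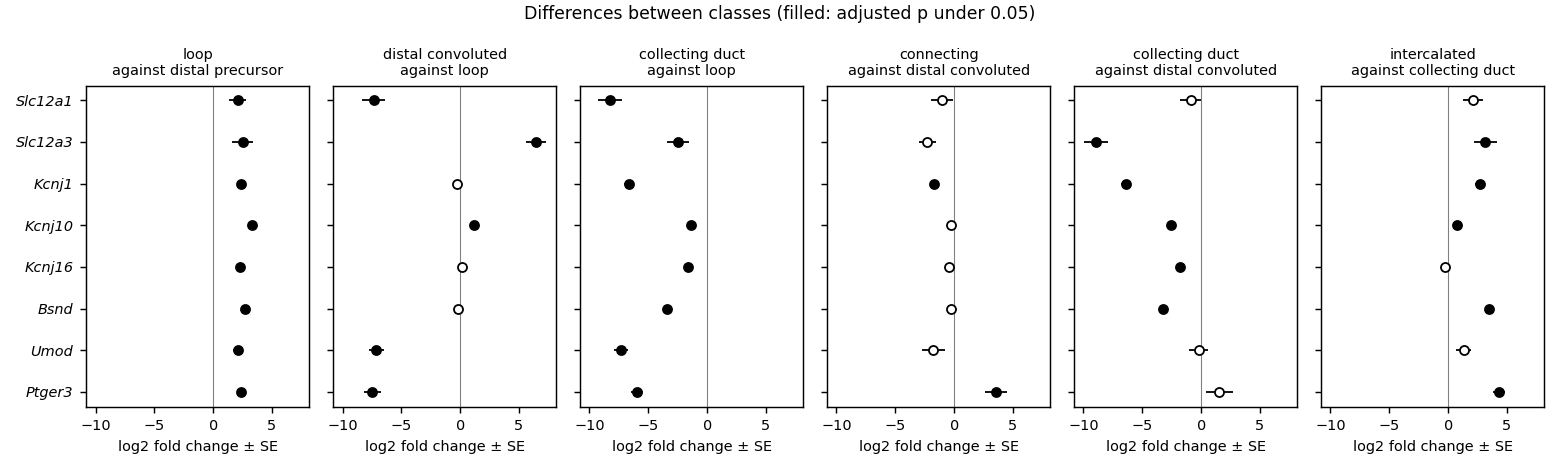
Log2 fold change with its standard error (horizontal) of each gene (vertical) in the 6 comparisons of class sums over 2 libraries; filled points had an adjusted p under 0.05. All 8 genes were higher in the loop than in the precursor gate and lower in the collecting duct than in the loop gate, while 3 did not pass between the distal convoluted and loop gates.

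From the distal convoluted to the connecting gate, 2 of the 8 genes passed, where 6.60% of all genes were called, 4.45% higher and 2.15% lower. Kcnj1 was lower in the connecting gate, 343 and 259 CPM against 78.3 and 92.5 CPM (-1.74 ± 0.28, adjusted p = 3.60e-04). Ptger3 was higher (3.54 ± 0.93, adjusted p = 0.0233), and that value rested on 4 and 2 UMIs in the distal convoluted and 126 and 72 in the connecting gate. Slc12a3, at 2785 and 2953 CPM against 332 and 916 CPM, had a log2 fold change of -2.27 ± 0.71 and an adjusted p of 0.0603. It passed under 6 alternatives, among them without the low-count filter (0.0194), with at least 3 gate markers (0.0241) and without near-cut cells (0.00198), and its direction was the same in all. Kcnj10 (-0.27 ± 0.21), Kcnj16 (-0.41 ± 0.26) and Bsnd (-0.26 ± 0.23) did not pass. Sgk1 (3.58 ± 0.34) and Nedd4l (0.80 ± 0.19), whose products regulate sodium channels, were higher, and Stk39 (-1.07 ± 0.14), a kinase that activates NCC, and Wnk1 (-0.92 ± 0.17) were lower. Slc9a2 (2.87 ± 0.44), Ptger1 (3.09 ± 0.51) and Avpr2 (2.82 ± 0.55) were higher, and Esrrb (-2.65 ± 0.32) was lower. Among all called genes 67.4% were higher with TMM scaling and 53.97% with DESeq2 size factors.

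The connecting gate was not uniform for Slc12a3: 54.1 and 42.4% of its cells had no UMI, and the upper quartile was 264 and 814 CPM. Connecting cells with an Slc12a3 UMI at 3000 UMIs also had Kcnj1 in 50 and 41.9%, against 11.3 and 11.3% of the others. Kcnj10 was found in 42.1 and 48.6% and 22.7 and 26.6% of these sets. The summed level of the 5 distal convoluted markers was 407 and 657 CPM in the connecting gate and 2764 and 2266 CPM in the distal convoluted gate, and their part in these values was not tested.

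Set against the distal convoluted gate, the collecting duct gate had 5 of the 8 genes lower (background 13.9% lower, 15.8% higher, 29.8% in either direction). These were Slc12a3 (-8.95 ± 1.01, adjusted p = 4.60e-07), Kcnj1 (-6.41 ± 0.37, adjusted p = 8.42e-11), Bsnd (-3.24 ± 0.26, adjusted p = 4.90e-09), Kcnj10 (-2.57 ± 0.23, adjusted p = 1.49e-08) and Kcnj16 (-1.81 ± 0.27, adjusted p = 1.92e-05), and in each the 2 gates' ranges were separate. Slc12a1 (-0.90 ± 0.89), Umod (-0.19 ± 0.81) and Ptger3 (1.53 ± 1.15) did not pass, and Slc12a1 and Umod stood under 100 CPM in both gates. Fxyd2 was lower (-4.05 ± 0.45), as were 5 of 9 kinase and ubiquitin genes, led by Klhl3 (-3.69 ± 0.24) and Wnk1 (-3.59 ± 0.19), while Sgk1 (2.10 ± 0.34) and Nedd4l (1.53 ± 0.19) were higher. Of 8 receptor and cyclase genes, 2 were higher, Ptger1 (6.33 ± 0.40) and Avpr2 (4.57 ± 0.48), and 3 lower, led by Pth1r (-3.73 ± 0.28). Nos1 was higher (4.37 ± 1.25).

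Intercalated cells, which secrete acid or base, were set against collecting duct cells, and 5 of the 8 genes were called higher (background 9.71% higher, 10.8% lower, 20.6% in either direction). Bsnd rose from 8.14 and 9.39 CPM to 83.3 and 102 CPM (3.48 ± 0.26, adjusted p = 8.20e-09), and Ptger3 from 6.10 and 2.68 CPM to 47.2 and 110.3 CPM (4.28 ± 0.51, adjusted p = 3.22e-06). These 2 calls held under every tested alternative. Kcnj1 (2.69 ± 0.43, adjusted p = 9.31e-05), Slc12a3 (3.16 ± 0.95, adjusted p = 0.0211) and Kcnj10 (0.76 ± 0.23, adjusted p = 0.0232) were also called. The summed level of the 5 connecting markers was 7305 and 4601 CPM in the intercalated gate against 1789 and 2105 CPM in the collecting duct gate, with none of the 5 at 0, and their part in these calls was not tested. Without near-cut cells the same 3 calls were lost, with adjusted p of 0.124 for Kcnj1, 0.207 for Slc12a3 and 0.928 for Kcnj10, whose levels became 32.2 and 37.2 CPM and 28.4 and 42.3 CPM. The Slc12a3 call was also lost with only the 2 classes in the fit (adjusted p = 0.0514), without the library block (0.0644) and after subtraction of free RNA (0.0666). The Kcnj10 call was also lost in those 3 fits (0.0538, 0.126 and 0.111), with DESeq2's Wald test (0.0545) and without doublets (0.0576). Kcnj16 (-0.26 ± 0.28) was, without near-cut cells, called lower in the intercalated gate (-1.10, adjusted p = 0.00852). Slc12a1 (2.14 ± 0.83, adjusted p = 0.0760) did not pass. Without replicate 2, which holds the cell with most of its UMIs, its fold change was -0.96.

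Of the pathway genes, Fxyd2 (2.16 ± 0.41) and Atp1b1 (1.07 ± 0.22), genes of the sodium pump, were higher in the intercalated gate. The calcitonin receptor Calcr was higher (5.49 ± 0.57), as was Pth1r (1.94 ± 0.29), and Avpr2 (-2.08 ± 0.33) and Ptger1 (-1.86 ± 0.24) were lower. Of 9 kinase and ubiquitin genes, 5 were higher, led by Wnk1 (1.18 ± 0.18), Klhl3 (1.15 ± 0.25) and Wnk4 (1.13 ± 0.19). The paracellular and magnesium list had 3 of 6 higher, led by Slc41a3 (2.69 ± 0.36). Of 8 transcription factors, 4 were higher, led by Esrrb (3.56 ± 0.48).

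Within the loop gate, the genes differed in how they varied from cell to cell. Umod was uneven, with no UMI in 16.1 and 16.3% of loop cells lower quartiles of 76.9 and 46.5 CPM and upper quartiles of 1830.2 and 1559.8 CPM. Slc12a1 was more even, with lower quartiles of 4999 and 4982 CPM and upper quartiles of 8883 and 8289 CPM. At 3000 UMIs, loop cells with a Umod UMI had Ptger3 in 52.4 and 49.04%, against 16.4 and 16% of loop cells without. They had Kcnj10 in 17.5 and 13.4%, against 28.4 and 27% of those without. Cells with a Kcnj10 UMI had Kcnj16 in 68.3 and 68.8%, against 52.6 and 49.3%. Slc12a3 was found in 2.15 and 3.24% of the Slc12a1-positive loop cells, where the stromal share was 0.681 and 1.18%. These shares describe cells of the same 2 libraries and carry no test.

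Precursor cells with Tfap2b or Irx1 were next divided by their own Slc12a1 level, leaving out those with at least 2 UMIs of Nos1 and Ptgs2 together. The division was made after the values were seen, so Slc12a1 chose the sets and the other genes are given as description. Under 100 CPM of Slc12a1 there were 113 and 92 cells, between 100 and 1000 CPM 32 and 23, and over 1000 CPM 67 and 55. Within a factor of 1.2 of the lower and upper limit lay 11 cells each, over both libraries. Epcam stood at 907 and 748 CPM in the lowest set and Col3a1 at 21.5 and 43.99 CPM.

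Umod was found in precursor cells with little Slc12a1. In the lowest set Slc12a1 stood at 11.9 and 19.97 CPM, or 0.162 and 0.289% of its loop level, and Umod at 184 and 247 CPM, or 15.9 and 26.3% of its loop level. Umod had a UMI in 53.98 and 56.5% of these cells. Kcnj1 (2.18 and 3.82%), Ptger3 (0.959 and 1.39%) and Bsnd (0.588 and 3.43%) stood far lower against their loop levels, and Kcnj10 (6.73 and 11.9%) and Kcnj16 (8.57 and 11.6%) between. Thinned to 3000 UMIs, Umod was found in 16.4 and 22.3% of precursor cells without an Slc12a1 UMI. In proximal tubule cells, which should lack the gene, that share was 1.21 and 2.33%, and Kcnj1 was found in 1.45 and 1.54% of the same precursor cells. Free RNA held more Slc12a1 than Umod, which stood at 51.7 and 72.7 CPM in barcodes under 100 UMIs. The part of free RNA in the levels of the lowest set was not tested. Lhx1, a gene of the renal vesicle, stood at 209 and 140.4 CPM in the lowest set and 49.8 and 34.6 CPM in the highest.

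Over 1000 CPM, Slc12a1 stood at 4553 and 4726 CPM, or 61.9 and 68.4% of its loop level, and Umod at 62.6 and 68.8% and Kcnj1 at 61.4 and 61.2% of theirs. Ptger3 reached 40.2 and 65.1%, Kcnj16 50.4 and 50.8%, Bsnd 27.9 and 51.3% and Kcnj10 15 and 11.8%. Kcnj10 stood lowest against its loop level among the 7 genes apart from Slc12a3 in these Slc12a1-rich cells, at 11.2 and 9.49 CPM. Between 100 and 1000 CPM of Slc12a1 it stood higher, at 19.1 and 28.2 CPM, from 28 and 28 UMIs. That was 25.6 and 35.0% of its loop level. Those UMIs lay in only 18.75 and 17.4% of the 32 and 23 cells of that set. The share of cells with a Kcnj10 UMI was similar over 1000 CPM, 19.4 and 14.5%, so the higher level rested on few cells. Kcnj1, Kcnj16, Bsnd, Umod and Ptger3 had higher levels over 1000 CPM than between 100 and 1000 CPM in both libraries.

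Precursor cells with at least 2 UMIs of Nos1 and Ptgs2, genes of the macula densa, the thick limb plaque that senses luminal salt, numbered 37 and 43. They carried Pappa2, another gene of that plaque, at 1824 and 879 CPM. It was not particular to them, with 577 and 472 CPM in the precursor cells over 1000 CPM of Slc12a1. Slc12a1 in them stood at 4227 and 3001 CPM, or 57.5 and 43.4% of the loop level, and Umod at 90.2 and 61.05 CPM, or 7.77 and 6.50%. Ptger3 stood at 48.8 and 35.4%, Kcnj1 at 32.1 and 20.3% and Kcnj10 at 8.58 and 6.37% of their loop levels. Umod was lower against its loop level than Slc12a1 in both libraries. The set was also chosen after the values were seen and rests on 2 genes with few UMIs. Its median depth was 57537 and 23494 UMIs per cell, so deeper cells enter it more readily, and it carries no test.

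**Figure D4:**
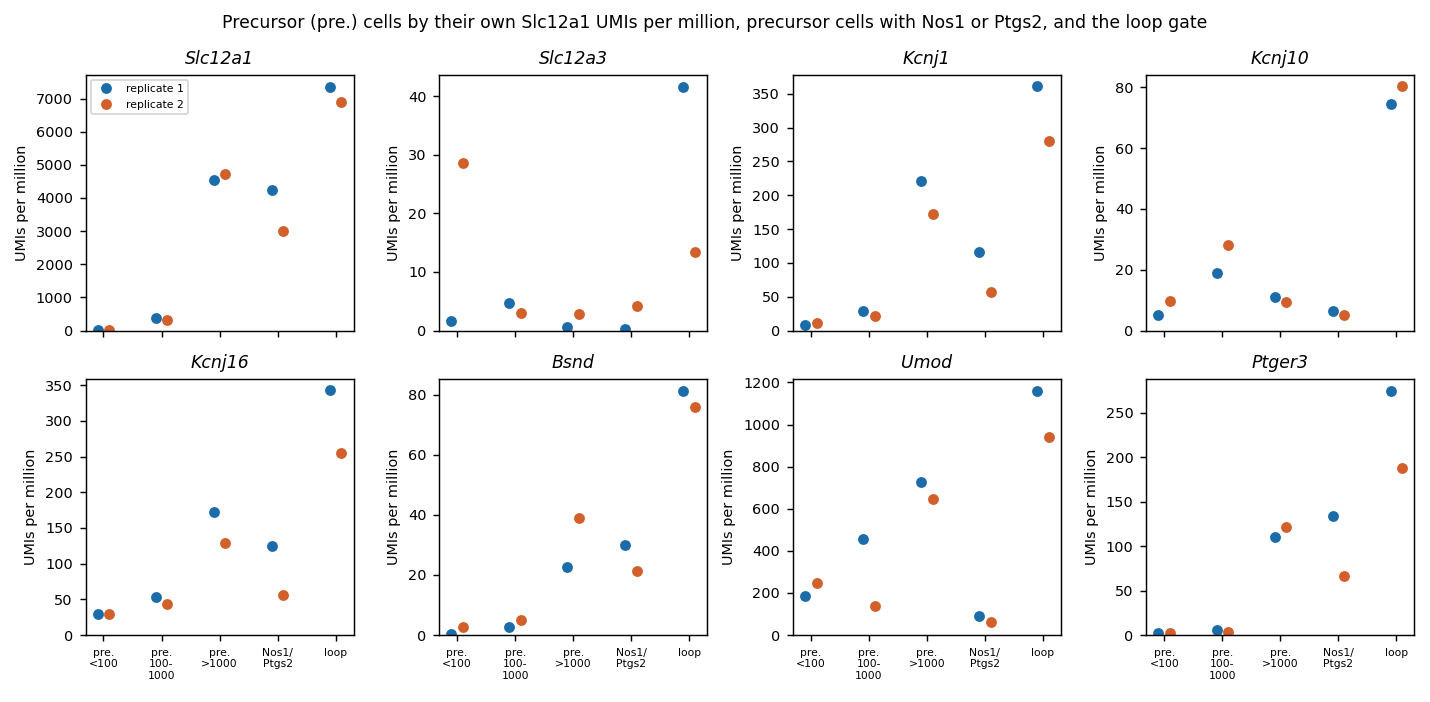
Level of each gene (vertical, CPM) in precursor cells (pre.) by their own Slc12a1 CPM, in precursor cells with at least 2 UMIs of Nos1 and Ptgs2 together (Nos1 or Ptgs2 cells), and in the loop gate. Points are the 2 libraries. Umod stood at 184 and 247 CPM in precursor cells under 100 CPM of Slc12a1 and at 90.2 and 61.05 CPM in the Nos1 or Ptgs2 cells.

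Loop cells and these Tfap2b or Irx1 precursor cells, without the Nos1 or Ptgs2 set, were also ordered by their loop marker score minus their precursor marker score and cut into 5 bins of equal size over both libraries. The order is one of marker levels, not of time, and the upper bins hold loop gate cells only. Slc12a1 stood at 839 and 408 CPM in bin 1, 2237 and 1821 CPM in bin 2, 6504 and 6189 CPM in bin 3 and 8427 and 7614 CPM in bin 5. Most of that difference lay between bins 2 and 3 in each library. Loop gate cells made up 0% of bin 2 and 67.5 and 73.0% of bin 3, so this step is also the step between the gates. Kcnj1 had reached 85 and 102% of its bin 5 level by bin 3, and Bsnd 53.98 and 65.6%.

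Kcnj10 and Kcnj16 were late in this order. Kcnj10 stood at 21.1 and 17.3 CPM in bin 3, 45.4 and 51.97 CPM in bin 4 and 149 and 168 CPM in bin 5, and Kcnj16 at 241 and 168, 265 and 203 and 502 and 382 CPM. Umod and Ptger3 did not peak in bin 5. Umod stood at 1221 and 1105 CPM in bin 3 and 1113 and 629 CPM in bin 5, and Ptger3 at 311 and 211 CPM in bin 4 and 203 and 115 CPM in bin 5. Both were lower in bin 5 than in bin 3 in each library, whereas Slc12a1, Bsnd, Kcnj10 and Kcnj16 were higher there. Slc12a3 had no order shared by the libraries, with bin 5 at 51.03 and 16.5 CPM.

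**Figure D5:**
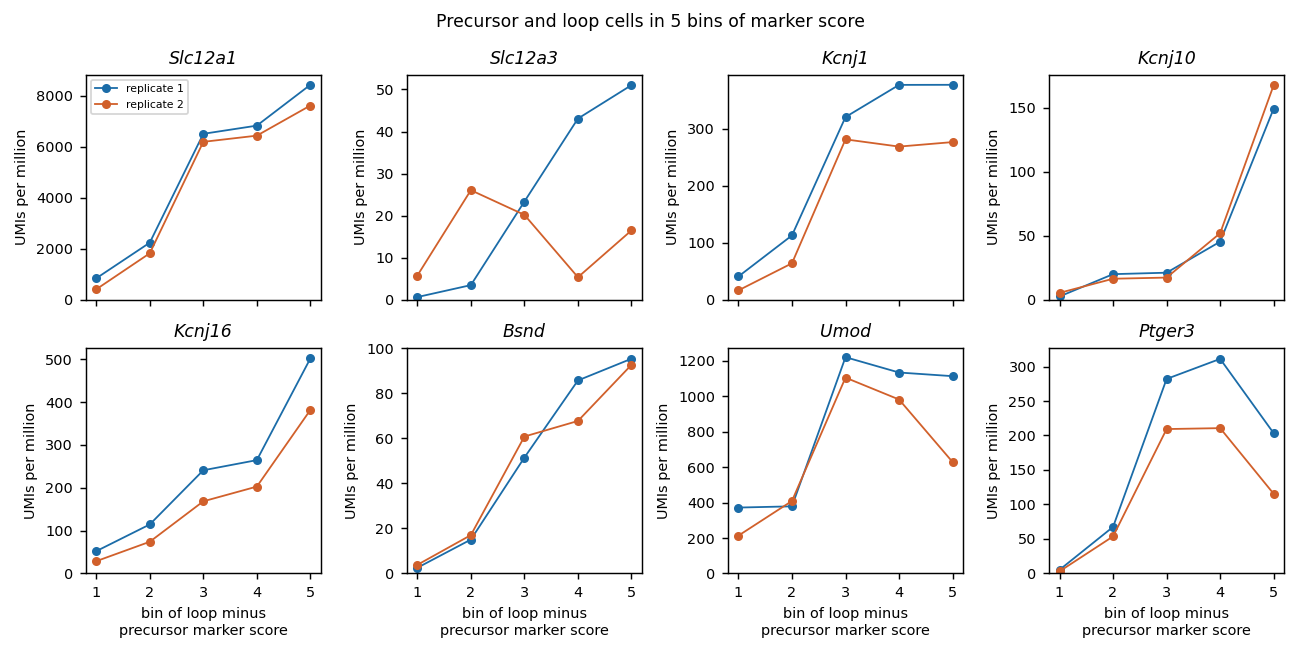
Level of each gene (vertical, CPM, from 0) in 5 bins of loop minus precursor marker score (horizontal), by library. Kcnj10 was highest in bin 5 at 149 and 168 CPM, where Ptger3 and Umod were below their levels in bins 3 and 4.

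Across the 32 class-by-library sums, which come from only 2 libraries, the 8 genes fell into overlapping patterns of likeness (Pearson r of log2 CPM plus 1, over 12214 genes with a mean of at least 5 CPM, as a description). Slc12a1 was most like Umod (r = 0.961), then Cldn16 (r = 0.883) and Gm2115 (r = 0.855). The most alike genes of Slc12a3 were Pgam2 (r = 0.912), Emx1 (r = 0.904) and Pvalb (r = 0.884), and its r with Slc12a1 was 0.082. Kcnj1 was closest to Kng2 (r = 0.977), Esrrb (r = 0.969) and Fads6 (r = 0.959). Among the genes most like Bsnd were Tmem213 (r = 0.966) and Ckmt1 (r = 0.954). Kcnj10 was closest to Mal (r = 0.961), Nudt4 (r = 0.954) and Cd164l2 (r = 0.951), and Kcnj16 to Atp1b1 (r = 0.964), Ppargc1a (r = 0.964) and 1810019D21Rik (r = 0.962). Umod followed Slc12a1 (r = 0.961), Cldn16 (r = 0.880) and Eprn (r = 0.859), and Ptger3 followed Car15 (r = 0.862), Slc12a1 (r = 0.830) and Casr (r = 0.826). Cldn16, Casr, Emx1 and Pvalb are gate markers, so their likeness partly reflects how the classes were drawn. Among the 8 themselves, r was 0.916 for Kcnj10 with Bsnd, 0.906 for Kcnj1 with Bsnd and -0.005 for Slc12a3 with Umod.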

How the data were processed

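Single-cell RNA sequencing of newborn kidney (3' ends, 10x Chromium, per the labels' protocols) gave 2 libraries of 1 group. The deposited values are raw UMI counts per gene and barcode for all barcodes. The authors made them with Cell Ranger, version 6.0.1 and genome build mm10 per the submitters' processing notes, whereas the file headers name version 4. The matrices held 200331687 and 173166168 UMIs, and the kept cells held 73.1% and 74.5% of them.

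The 8 genes, the marker and pathway lists (49 genes) and the comparisons were chosen with earlier results of these data known. Each marker's log level per 10000 UMIs was divided by its 99 percentile and limited to 1. A cell took the class with the highest mean among classes with at least 2 markers detected; this scaling was chosen after the markers, but not the 8 genes, had been seen. No doublet caller was applied in the main values; Scrublet (scanpy 1.11.5) removed 245 and 142 cells in an alternative. The UMIs of each library's cells of a class were added up and fitted in edgeR 4.0.16 (R 4.3.3, limma 3.58.1): TMM scaling, filterByExpr, 16 class means, the library as a block since each class comes from the same 2 suspensions, 15 residual degrees of freedom, and two-sided quasi-likelihood F tests. Benjamini-Hochberg adjustment covered all tested genes except gate markers, with a threshold of 0.05. Standard errors are the absolute log2 fold change divided by the root of F. The code was tested on simulated data. For shares of cells, each cell was thinned to 3000 UMIs; exact binomial intervals (95%) cover counting error only.

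All 8 genes are named; of each pathway list, counts and up to 4 called genes with the largest fold change; and, for each gene, the 3 most alike genes. Results for some of these genes are not reported here. Alternatives were no low-count filter, DESeq2 size factors, DESeq2's Wald test (1.42.0), only the 2 classes compared, no library block, each library left out, at least 10000 UMIs, doublets removed, at least 3 gate markers, near-cut cells left out, free RNA subtracted, and thinning to 1000 UMIs or none. Restricting precursor cells to those with Tfap2b or Irx1, and leaving out near-cut cells and doublets together, were added after seeing the data. Genes expressed from overlapping opposite strands cannot be told apart where counting ignores strand.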

Additional observations from a re-analysis of the deposited data

How the results depend on the processing

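Of the 33 calls among 48 gene-by-comparison values, 27 were kept under every tested alternative and 6 lost the call under at least 1. The 6 were Slc12a1 and Slc12a3 in loop against distal precursor, Slc12a3 in collecting duct against loop, and Slc12a3, Kcnj1 and Kcnj10 in intercalated against collecting duct. The number of genes called in intercalated against collecting duct, 5, was 3 with only the 2 classes in the fit, 3 without the replicate block, 3 without near-cut cells and 3 after free RNA was subtracted. In connecting against distal convoluted, 2 became 5 with only the 2 classes in the fit, which leaves 1 residual degree of freedom. The other 4 counts stayed within a factor of 1.5. Without the replicate block, calls over all genes fell from 2161 to 1391 in distal convoluted against loop and from 1172 to 674 in connecting against distal convoluted. Leaving out a library leaves no residual degrees of freedom, so it gives values with no count of calls.

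Values that changed sign were uncalled, except Kcnj10 in intercalated against collecting duct, at -0.0878 without near-cut cells and doublets. In distal convoluted against loop, Kcnj1 was 0.0194 without near-cut cells and 0.0484 without doublets too, and Bsnd was 0.0682 and 0.11. Slc12a1 in connecting against distal convoluted was 0.10 without near-cut cells and doublets, Umod in collecting duct against distal convoluted was 0.11 without doublets, and Umod in intercalated against collecting duct was -0.15 and -0.0522. With 1 library left out, Bsnd in distal convoluted against loop ranged from -0.37 to 0.10, Slc12a1 and Umod in collecting duct against distal convoluted from -1.65 to 0.57 and from -0.91 to 0.32, and Slc12a1, Kcnj16 and Umod in intercalated against collecting duct from -0.96 to 3.18, from -0.89 to 0.36 and from -0.64 to 1.89. The causes were not tested, beyond the fewer cells or libraries of each alternative. Shares of cells move with depth: Kcnj10 in distal convoluted cells went from 13.8% at 1000 UMIs to 79.7% unthinned, against 43.9% at 3000. Among the 6 classes compared, the distal convoluted (49 and 83) and intercalated gates (82 and 62) held the fewest cells.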

Other observations

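Where the 8 genes lay in the libraries as a whole differed by gene. The proximal tubule gate held 27.4 and 17.04% of the Kcnj16 UMIs and the loop gate 23.7 and 28.5%, so the order of these gates differed between libraries. Kcnj10 had its largest share, 35.3 and 36.9%, in the connecting gate, and Bsnd its largest, 38.8 and 36.8%, in the loop gate. The precursor gate held 22.8 and 10.9% of the Kcnj1 UMIs and 30.7 and 19.9% of the Umod UMIs. In these shares the number of cells in a gate counts as much as the level per cell.

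Within the precursor gate, cells with Tfap2b or Irx1 and under 2 UMIs of Nos1 and Ptgs2 together were divided by Lhx1. They numbered 139 and 104 with an Lhx1 UMI and 73 and 66 without. Ptger3 stood at 30.8 and 19.3 CPM with Lhx1 and 105 and 123 CPM without, and Bsnd at 7.18 and 11.4 CPM and 18.2 and 26.9 CPM. Kcnj10 went the other way, at 10.9 and 15.1 CPM with Lhx1 and 1.59 and 2.18 CPM without. The values without Lhx1 rested on 2 and 3 Kcnj10 UMIs in all. Median depths were 29265 and 28255 UMIs with Lhx1 and 14628 and 20790 without, and a deeper cell is more likely to show an Lhx1 UMI. The stromal gene Col3a1 stood at 4.65 and 15.1 CPM with Lhx1 and 51.5 and 68.3 CPM without, and the gate marker Dkk1 at 4.12 and 4.83 and 42.8 and 52.3 CPM. The part of depth and of these other cells in the values was not tested.

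The ureteric tip gate differed between libraries in Kcnj16 per Kcnj10 UMI, 3.90 and 0.984, with exact 95% intervals of 2.74 to 5.67 and 0.682 to 1.42. It held 40 and 63 Kcnj10 UMIs.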
